A study of Mus musculus with 25 samples.

Results

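MicroRNAs of the miR-297, miR-466, miR-467 and miR-669 families were described in mouse mammary tumours and normal mammary gland. Members were all mouse miRNA names on the array that carry one of these 4 numbers, which gave 61 of 1122 mouse miRNAs: 3 of miR-297, 23 of miR-466, 12 of miR-467 and 23 of miR-669. The rule used names alone and no measured value, though members were chosen with earlier results of these data known. RNA of snap-frozen tissue was hybridised to 25 one-colour Agilent arrays, 1 for each of 2 wild-type normal mammary pools, 7 MMTV-Met tumours (Met), 8 MMTV-Met;Trp53fl/+ tumours (MetTrp53) and 8 Trp53fl/+ tumours (Trp53). All were from female FVB mice. In the MMTV-Met animals the Met receptor tyrosine kinase is a transgene under the mouse mammary tumour virus promoter, which is active mainly in mammary epithelium. Trp53fl/+ is 1 floxed copy of the gene for the tumour suppressor p53, and the labels name no Cre driver. Ages are not given in the sources used here. Each normal array held pooled tissue, 1 pool from multiparous and 1 from nulliparous mice. All Met tumours with a stated parity came from multiparous mice, and most MetTrp53 tumours came from nulliparous mice. Trp53 tumours came from both, and parity is not stated for every tumour. Comparisons between genotypes are therefore partly mixed with parity. Whether each tumour came from its own mouse is not stated. Trp53 tumours 2 and 3 carry 1 number in their titles, as do Trp53 tumours 4 and 8, and a p-value here covers only the spread among the samples measured.

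In rodents, an intron of the Polycomb-related gene Sfmbt2 holds a long tandem cluster of miRNA genes from these families, many of them near copies of each other. The cluster is known for its high level in placenta and embryonic stem cells, where Sfmbt2 is an imprinted gene. Mature miRNAs pair with messenger RNAs through the seed, the bases near the 5′ end, and many sequences of these families carry alternating purine and pyrimidine repeats. In RefSeq (GRCm38.p6, used for names and neighbours), 72 genes of the 4 families lay inside Sfmbt2 on chromosome 2 and 10 lay elsewhere. By these genes, 49 members came from Sfmbt2 alone, 8 from other places alone, 3 from both and 1 could not be matched. The name of the cluster therefore did not hold for every member, and the location of each is given below where a result turns on it.

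Of the 61 members, 7 had a mature sequence in the RefSeq table, and all 7 are among the 8 members placed outside Sfmbt2. The sequences below belong to the 4 of these on which results turn and to 3 other miRNAs whose levels are set beside them further on. They run 5′ to 3′, with the seed (bases 2 to 8) in capitals and GRCm38.p6 coordinates.
mmu-miR-467f (chr11:69635419-69635439, minus strand): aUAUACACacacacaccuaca
mmu-miR-466q (chr3:28419988-28420007, plus strand): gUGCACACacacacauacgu
mmu-miR-466i-3p (chr13:17747552-17747573, plus strand): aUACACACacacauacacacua
mmu-miR-669n (chr3:115979905-115979924, plus strand): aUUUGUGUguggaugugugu
mmu-miR-1187 (chr5:82798964-82798986, minus strand): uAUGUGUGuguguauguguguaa
mmu-miR-574-5p (chr5:64970328-64970350, plus strand): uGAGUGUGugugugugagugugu
mmu-miR-3082-5p (chr17:25831406-25831427, minus strand): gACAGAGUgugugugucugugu
The 7 members with a sequence have 7 different seeds, so none of them share one. The letters ACACACAC occur in miR-467f, miR-466q, miR-466i-3p and also in miR-467g, which makes 4 members and 0.239% of 1674 distinct mature mouse sequences in the table. The opposite repeat UGUGUGUG occurs in miR-669n and miR-466k among the members and in miR-1187, miR-574-5p and miR-3082-5p among the others printed. It is also found in miR-32-3p and miR-672-5p, which are not printed, and in 0.418% of the table. Only the strand of the mature miRNA was searched. How far the probe of one such sequence also binds another was not tested, so the signal of a member is the signal of its probes.

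Most members were at or near background. A miRNA was called detected on an array when at least 50% of the spots of 1 of its probes were well above background by the scanner software. By this rule 36 members were detected on at least 1 array and 25 on none. A single array detected 14 of the 36, between 2 and 6 arrays detected 10, and 12 members were detected on 8 arrays or more. Only miR-466i-5p was detected on all 25. Of the 1061 other mouse miRNAs, 34.3% were detected on at least 1 array, against 59.0% of the members, while 12% of the others and 1.64% of the members were detected on every array. The 59.0% includes the 14 members detected on a single array, which was Met tumour 7 for each. Of the 1061 others, 0 were detected in that tumour alone, so this 1 array raises the share of the members. By location, 29 of 49 members of Sfmbt2, 5 of 8 from elsewhere and 2 of 3 from both were detected at least once. The 29 include all 14 detected in Met tumour 7 alone. No member spot was saturated.

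**Figure D1:**
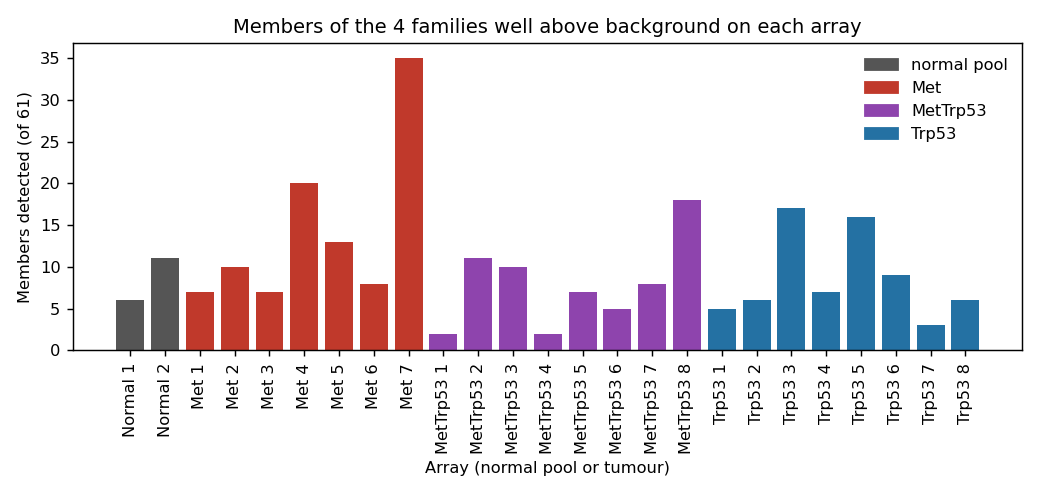
Number of the 61 members well above background on each of 25 arrays, 1 bar per array, coloured by group. Met tumour 7 detected 35 and Met tumour 4 detected 20, while 2 MetTrp53 tumours detected 2.

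The number of members detected differed more within groups than between them. The normal pools detected 6 and 11. Met tumours detected between 7 and 35 with a median of 10, MetTrp53 tumours between 2 and 18 with a median of 7.5, and Trp53 tumours between 3 and 17 with a median of 6.5. The 4 groups overlapped. After Met tumour 7, which had 35, the highest counts were 20 in Met tumour 4, 18 in MetTrp53 tumour 8, 17 in Trp53 tumour 3 and 16 in Trp53 tumour 5. Over all mouse miRNAs the arrays detected between 182 and 286, Met tumour 7 detected 262, and the scaling percentile of the arrays ran from 279 to 909 intensity units with 738 in Met tumour 7. The other 3 tumours on the slide of Met tumour 7 detected 8, 18 and 6 members.

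Met tumour 7, labelled adenocarcinoma, stood apart for these families. It was singled out after its values were seen. Of all 61 members, 39 (63.9%) had their highest signal in it, against 3.11% of the 1061 other mouse miRNAs. Among the 36 members detected anywhere it was 29 (80.6%), against 7.14% of the 364 others detected anywhere. That share leans upwards, since 14 of the 36 counted as detected through this tumour alone. All 14 members detected on a single array were detected in this tumour, while none of the 1061 other miRNAs was detected in it alone. By location, 2 of the 8 members from elsewhere, 2 of the 3 from both and 35 of the 49 members of Sfmbt2 were highest there, undetected members included. Among the 29 Sfmbt2 members detected on any array it was 26, which includes the 14 detected there alone. The exceptions were miR-466h-3p, miR-669p-3p and miR-669c-3p.

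Among the members of Sfmbt2, miR-467a-3p, miR-669f-3p and miR-466b-3p shared their highest arrays. Signals are given as scaled signal, the processed signal of a miRNA after each array was brought to a common 75th percentile, in intensity units, and the level in the tests is its log2 with a floor of 12.1 units set for each probe. For mmu-miR-467a-3p, which RefSeq places in 10 Sfmbt2 copies, the normal pools had 5.70 and 6.31. Met tumours ran from 0.319 to 737 with a median of 15.6, MetTrp53 tumours from 4.01 to 35.4 with a median of 10.3, and Trp53 tumours from 3.42 to 52.7 with a median of 14.0. The groups overlapped, and 1 tumour set the top of the range: Met tumour 7 was 8.06-fold above the next array, Met tumour 4 at 91.4.

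For mmu-miR-669f-3p the normal pools had 2.42 and 3.43, and neither detected it. Met tumours ran from 0.879 to 712 with a median of 10.1, MetTrp53 tumours from 5.35 to 27.0 with a median of 6.09, and Trp53 tumours from 2.37 to 30.5 with a median of 8.68. For mmu-miR-466b-3p the pools had 1.37 and 1.98, and the tumour medians were 10.1 for Met, 5.36 for MetTrp53 and 9.87 for Trp53. Met tumour 7 was again the highest array for both, with 712 and 494, followed by Met tumour 4 with 77.1 and 62.0. MetTrp53 tumour 8 was the highest of its group for both, with 27.0 and 23.3, and Trp53 tumour 5 of its own, with 30.5 and 32.8.

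The further Sfmbt2 members with Met tumour 7 above 100 units were mmu-miR-467b-5p at 303, mmu-miR-467e-5p at 268, mmu-miR-467c-5p at 232, mmu-miR-467a-5p at 228, mmu-miR-467d-3p at 149.9 and mmu-miR-669b-5p at 141.4. All 6 had Met tumour 4 as their second array, at 10.3 to 33.2 units. Both arms of the miR-467a genes were highest in Met tumour 7. In the same way, mmu-miR-467c-3p (14.3 units) and mmu-miR-467e-3p (15.5 units) were detected in that tumour only, where their 5p arms were highest. The 14 members detected only there ran from 8.27 units (mmu-miR-669h-3p) to 87.2 units (mmu-miR-669l-5p), and on no other array did one of them pass 10.99 units.

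The arrays that detected these members overlapped to a large extent. MiR-466b-3p, miR-467c-5p and miR-467a-5p were detected on the same 6 arrays, Met tumours 4 and 7, MetTrp53 tumour 8 and Trp53 tumours 3, 5 and 6. MiR-467d-3p was detected on 5 of these 6, without Trp53 tumour 6. Neither normal pool detected any of the 4. The 6 tumours were labelled adenosquamous, adenocarcinoma, poorly differentiated adenocarcinoma and, in 2 cases, intermediate, and 1 had no stated pathology.

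**Figure D2:**
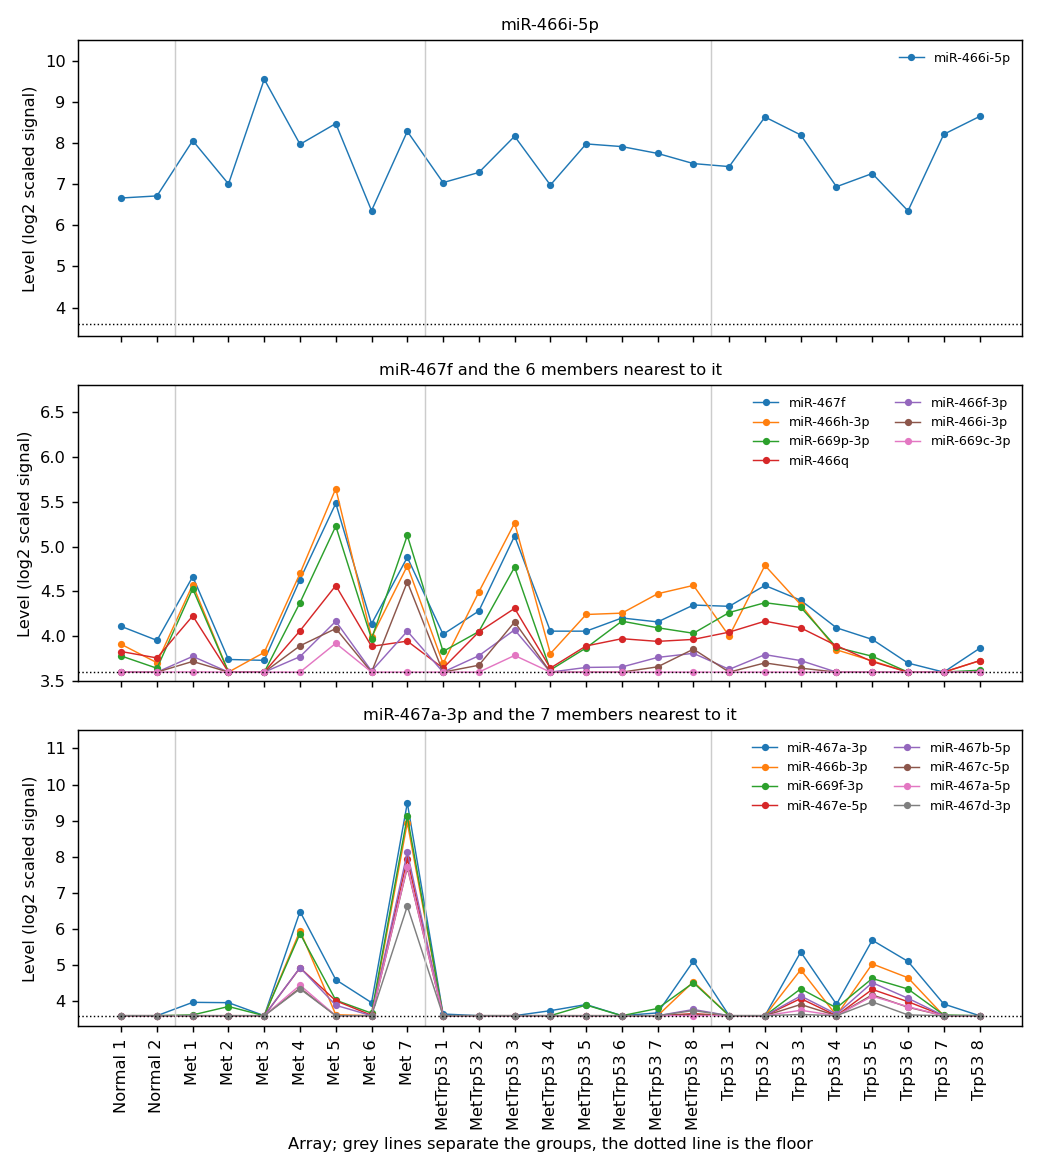
Level (log2 of scaled signal) of 16 members on each of 25 arrays in 3 panels, 1 point per array and 1 line per member, with the floor dotted. The lowest panel peaks in Met tumour 7 and Met tumour 4, the middle panel in Met tumour 5 and MetTrp53 tumour 3 for 5 of its 7 members, with miR-466i-3p highest in Met tumour 7 and miR-669p-3p second highest there, and the top panel, miR-466i-5p alone, in Met tumour 3.

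Cell type markers were summed for each array to set beside these values. In Met tumour 7 the epithelial list (miR-200a-3p, miR-200b-3p, miR-200c-3p, miR-141-3p and miR-429-3p) had 5 of 5 detected and a sum of 2444 units, rank 6 of 23 tumours, where the others ran from 0.201 to 5916. The mesenchymal list had 3 of 3 detected and 182 units (rank 22, others 120.3 to 3998). The leukocyte list had 3 of 5 detected and 343 units (rank 21, others 135 to 1938). The endothelial list had 1 of 2 detected and 222 units (rank 22, others 185 to 1446), and the erythroid list 1 of 2 and 367 units (rank 20, others 176 to 3673). No muscle marker of 4 was detected there, while the normal pools had muscle sums of 16208 and 22067 units. Epithelial sums overlapped between groups, at 604 to 690.0 in the pools, 17.0 to 5916 in Met, 17.7 to 3444 in MetTrp53 and 0.201 to 2637 in Trp53 tumours, so the epithelial markers were near 0 in at least 1 tumour. The part of tissue make-up in the member signals was not tested, and in such bulk RNA fewer cells of a type and less RNA per cell cannot be told apart.

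MiR-466i-5p, whose gene lies on chromosome 13, did not follow the Sfmbt2 members. For mmu-miR-466i-5p the normal pools had 102 and 106 units. Met tumours ran from 82.4 to 759 with a median of 268, MetTrp53 tumours from 127 to 289.98 with a median of 200.2, and Trp53 tumours from 82.3 to 403 with a median of 234. The pools lay near the bottom of the tumour range, with Met tumour 6 and Trp53 tumour 6 below them and the other 21 tumours above. The highest array was Met tumour 3, in which miR-467a-3p had its lowest signal of all arrays.

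Across arrays its nearest miRNAs were not members. Likeness was measured by the correlation of levels over 25 arrays with a floor 4 times lower than in the tests, for 3 members chosen after their values were seen as starting points, which gave 57 relations. Permutation p-values used 100000 resamples and were adjusted by Benjamini-Hochberg over the 57. The adjustment does not cover the choice of the starting points or of the other miRNAs set beside them. Arrays share labelling, scaling and depth of signal across miRNAs. MiR-466i-5p correlated with miR-1187 at r = 0.97 (rho 0.97), with miR-574-5p at r = 0.95 (rho 0.95) and with miR-3082-5p at r = 0.93 (rho 0.91), each with p = 1e-05, the smallest the resamples can give, and adjusted p = 4e-05. Without Met tumour 3 and Trp53 tumour 6, the 2 arrays farthest from the median, r was 0.96, 0.94 and 0.91. With slide means removed it was 0.97, 0.95 and 0.93, and within the 23 tumours 0.97, 0.95 and 0.93. These 3 hold UGUGUGUG in the sequences printed above and were the 3 nearest of 270 non-member miRNAs compared. MiR-32-3p and miR-672-5p hold it too, but were detected in 1 and 3 tumours and entered no correlation. The highest array of miR-32-3p was Met tumour 3 (10.4 units), which was also the highest for miR-466i-5p. That of miR-672-5p was Met tumour 6 (26.2 units), where miR-466i-5p had the lowest signal of the Met tumours (82.4 units). The member miR-466k, which also holds the repeat, was detected on no array. Whether the repeat goes with the pattern of miR-466i-5p was not tested.

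Between the arms of its own gene the correlation was much lower. MiR-466i-3p was detected on only 8 arrays and lay at the floor used in the tests on 15. How far its low signal lowered r was not tested. MiR-466i-5p against miR-466i-3p gave r = 0.35 (rho 0.33, permutation adjusted p = 0.219 and 0.235), with r = 0.47 without the same 2 arrays. MiR-669n, which also holds UGUGUGUG and lies on chromosome 3, gave r = 0.59 and rho 0.75 with miR-466i-5p (permutation adjusted p = 0.00526 and 7e-05), with r = 0.62 without the 2 arrays.

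**Figure D3:**
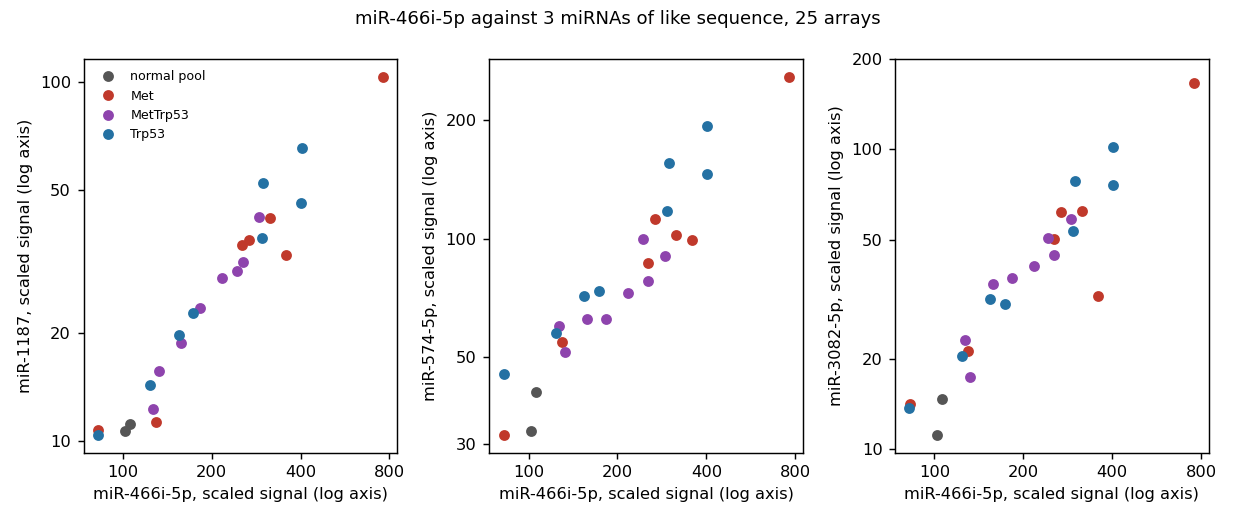
Scaled signal of miR-466i-5p (x) against miR-1187, miR-574-5p and miR-3082-5p (y) on log axes, 1 point per array and coloured by group. Met tumour 3 is the highest point in each panel, and the 2 normal pools lie at the lower left.

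A second set of members moved with miR-467f, whose gene lies on chromosome 11. For mmu-miR-467f the normal pools had 17.5 and 14.0 units, Met tumours ran from 10.2 to 48.1 with a median of 26.2, MetTrp53 tumours from 15.6 to 35.9 with a median of 19.2, and Trp53 tumours from 8.48 to 25.2 with a median of 15.5. Met tumour 5 and MetTrp53 tumour 3 were the highest arrays and Trp53 tumour 7 the lowest, and the groups overlapped. Its correlation was r = 0.96 with miR-466h-3p, 0.95 with miR-669p-3p, 0.92 with miR-466q, 0.92 with miR-466f-3p, 0.90 with miR-669c-3p and 0.86 with miR-466i-3p. Spearman's rho ran from 0.89 to 0.96, each permutation p was 1e-05 (adjusted 4e-05), and without Trp53 tumour 7 and Met tumour 5 r ran from 0.84 to 0.94. With slide means removed r ran from 0.91 to 0.97, and within tumours from 0.86 to 0.96.

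The members of this set have different locations. MiR-466h-3p, miR-669p-3p and miR-669c-3p belong to Sfmbt2, miR-466f-3p to both, and miR-467f, miR-466q and miR-466i-3p lie on chromosomes 11, 3 and 13. All members of the set with a printed sequence hold ACACACAC. Its 3 members from Sfmbt2 alone are the detected Sfmbt2 members that were not highest in Met tumour 7. Their signals were low, with 48.1 units for miR-467f and 50.6 units for miR-466h-3p as the highest values, and at the floor used in the tests r fell to 0.71 for miR-669c-3p and 0.75 for miR-466i-3p.

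The third set holds members of Sfmbt2 only. MiR-467a-3p correlated at r = 0.98 with miR-466b-3p, 0.97 with miR-467e-5p, 0.96 with miR-669f-3p, 0.96 with miR-467b-5p, 0.95 with miR-467c-5p, 0.94 with miR-467a-5p and 0.91 with miR-467d-3p. Spearman's rho ran from 0.80 to 0.95 and each permutation p was 1e-05 (adjusted 4e-05). Without Met tumours 4 and 7, which were highest for all 8, r still ran from 0.80 to 0.95, so the relation did not rest on these 2 arrays alone. MiR-466b-3p, miR-467c-5p and miR-467a-5p were detected on 6 arrays and miR-467d-3p on 5, Met tumours 4 and 7 among them. For these members, r without those 2 tumours rested on few detected values and otherwise on signals below detection. With slide means removed and within tumours r ran from 0.91 to 0.98 in both cases. MiR-467a-3p gave r = 0.23 (permutation adjusted p = 0.448) with miR-467f and r = -0.04 (adjusted p = 0.912) with miR-466i-5p. MiR-669n, outside Sfmbt2, gave r = 0.70 but rho 0.35 with miR-467a-3p (permutation adjusted p = 0.00439 and 0.1999), and r = 0.24 without Met tumours 4 and 7, so that relation rested on those 2 tumours.

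**Figure D4:**
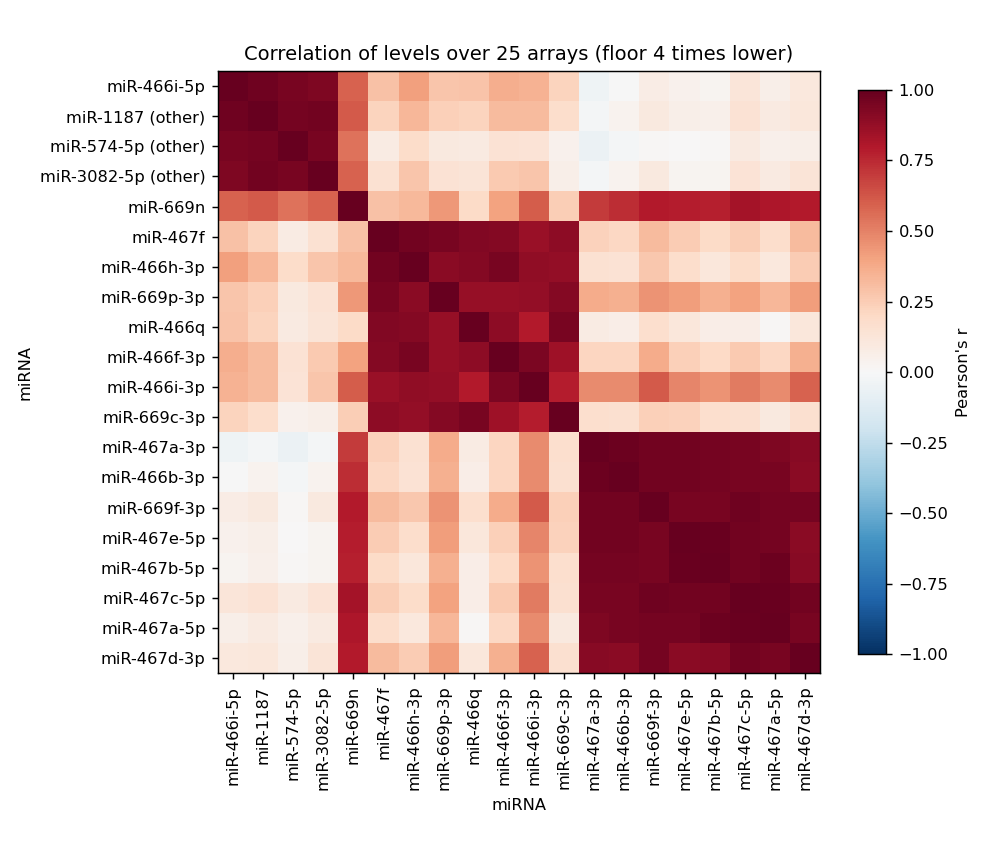
Pearson's r of levels over 25 arrays for 17 members and 3 other miRNAs, red for positive values and blue for negative ones. Dark blocks mark miR-466i-5p with the 3 other miRNAs, the 7 members around miR-467f and the 8 around miR-467a-3p.

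Between tumours and the normal pools no member passed the test. Differences were fitted with limma on all arrays over 287 miRNAs, of which 12 were members, and an adjusted p under 0.05 was the threshold. Of the 12, 6 were detected on both pools and the others passed the filter through tumour arrays, which leans their differences upwards, so their signs are not evidence. Over all miRNAs tested 15% were called, and at an unadjusted p under 0.05 0 of 12 members and 26.1% of all passed. MiR-466i-5p had the largest difference, 1.06 on the log2 scale (SE 0.56, 95% interval -0.10 to 2.21, limma adjusted p = 0.226), and was above both pools in 21 of 23 tumours. MiR-467a-3p had 0.85 (SE 0.92, interval -1.05 to 2.76, limma adjusted p = 0.612). It was at the floor on both pools and on 7 tumour arrays, and its difference ran from 0.45 with a floor 2 times higher to 1.48 with one 4 times lower. The difference of miR-466i-5p was 0.69 when every mouse probe entered the scaling percentile. The median difference was 0.39 over the 12 and 0.19 over all 287. Over the scaling, floor and value alternatives these medians ran from 0.15 to 0.70 and from 0.02 to 0.37.

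The genotypes gave no call against normal either, and these comparisons share the same 2 pools. Met against normal called 14.6% of all miRNAs, MetTrp53 against normal 17.4% and Trp53 against normal 14.3%, with 0 of 12 members in each. At an unadjusted p under 0.05, 1 member passed for Met (22% of all), 0 for MetTrp53 (30.7%) and 0 for Trp53 (28.2%). That member was miR-466i-5p, with a difference of 1.27 (SE 0.61, limma adjusted p = 0.219). Its differences were 0.89 (SE 0.60, limma adjusted p = 0.343) for MetTrp53 and 1.02 (SE 0.60, adjusted p = 0.286) for Trp53, and that for MetTrp53 was 0.37 with every mouse probe in the scaling percentile. The 3 non-members with UGUGUGUG printed above lay close to it for Met against normal, with 1.28 for miR-1187, 1.30 for miR-574-5p and 1.34 for miR-3082-5p. None of these 3 was called in any comparison. MiR-466i-5p itself had no sequence in the RefSeq table.

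Met and Trp53 tumours were compared to set one oncogenic lesion against the other. The test called 13.6% of all miRNAs and 0 of 12 members, and at an unadjusted p under 0.05 it passed 27.2% and 0. The largest member differences were 0.88 for miR-669f-3p (SE 0.57, interval -0.31 to 2.07, limma adjusted p = 0.33) and 0.80 for miR-467a-3p (SE 0.65, interval -0.53 to 2.14, adjusted p = 0.434). Without Met tumour 7 these were 0.16 (SE 0.29) and 0.08 (SE 0.42), and with normexp background correction 0.46 and 0.45. The smallest p of a member was that of miR-466i-3p, with a difference of 0.25 (SE 0.12, limma adjusted p = 0.185) and 0.13 without Met tumour 7. Over the scaling, floor and value alternatives it ran from 0.03 with normexp to 0.72 with a floor 4 times lower.

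MetTrp53 tumours were compared with each single-lesion genotype. No Met tumour was labelled nulliparous, while most MetTrp53 tumours were, so genotype and parity cannot be fully told apart in the comparison with Met. Against Met, 2.09% of all miRNAs and 0 of 12 members were called, and 20.2% and 1 passed at an unadjusted p under 0.05. MiR-467a-3p differed by -1.29 (SE 0.65, interval -2.63 to 0.05, limma adjusted p = 0.263) and miR-669f-3p by -1.05 (SE 0.57, adjusted p = 0.304), without Met tumour 7 these were -0.57 and -0.33, and with normexp -0.67 and -0.58. The member that passed was miR-669n, with -0.91 (SE 0.39, limma adjusted p = 0.178) -0.43 (adjusted p = 0.192) without Met tumour 7 and -0.40 with normexp. For mmu-miR-669n the Met tumours ran from 8.13 to 193 units with a median of 19.5 and the MetTrp53 tumours from 5.41 to 16.3 with a median of 11.6, so the groups overlapped.

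Against Trp53, 0% of the 287 miRNAs were called by limma, and 8.01% of all and 0 of 12 members passed at an unadjusted p under 0.05. The largest differences upwards were 0.39 for miR-466h-3p (SE 0.26, interval -0.14 to 0.93) and 0.22 for miR-467f (SE 0.22), and downwards -0.49 for miR-467a-3p (SE 0.62, interval -1.78 to 0.80) and -0.29 for miR-669n (SE 0.38). Over the scaling, floor and value alternatives these ran from 0.05 to 0.62 for miR-466h-3p, from 0.004 to 0.43 for miR-467f, from -0.64 to -0.22 for miR-467a-3p and from -0.64 to -0.01 for miR-669n. The moderated F-test over the 3 genotypes called 7.67% of all miRNAs and 0 members, and at an unadjusted p under 0.05 it passed 25.4% and 0.

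**Figure D5:**
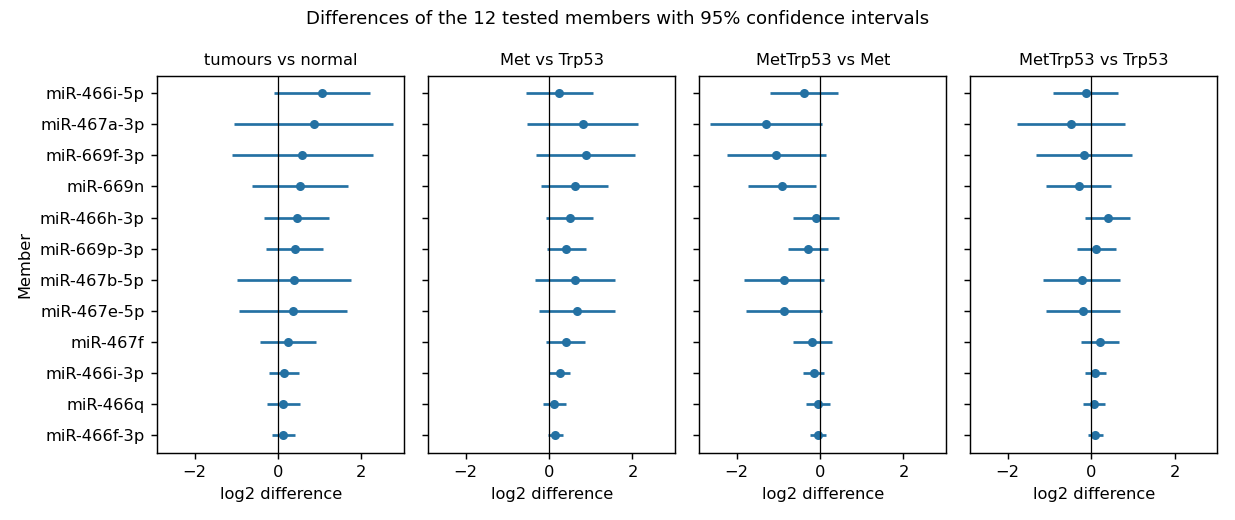
Log2 differences (points) with 95% confidence intervals (lines) of the 12 tested members in 4 comparisons. All intervals but that of miR-669n for MetTrp53 against Met include 0, and miR-467a-3p and miR-669f-3p have the widest ones.

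Spindloid tumours were compared with other stated pathology among the 22 tumours with a label, and genotype was a term of the model. The test called 0% of all miRNAs, and at an unadjusted p under 0.05 it passed 14.3% of all and 0 of 12 members. MiR-467a-3p differed by -0.71 (SE 0.60, interval -1.96 to 0.55, limma adjusted p = 0.662) and miR-669f-3p by -0.45 (SE 0.55, adjusted p = 0.803). Without Met tumour 7 these were -0.55 and -0.29, and over the floors tried they ran from -0.73 to -0.42 and from -0.75 to -0.27.

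The signs of the member differences depended on the comparison and on the scaling. All 12 were above 0 in tumours against normal (10 to 12 over the scaling, floor and value alternatives), Met against normal (11 to 12), MetTrp53 against normal (9 to 12), Trp53 against normal (6 to 12) and Met against Trp53 (10 to 12). In MetTrp53 against Met 0 of 12 were above 0 (0 to 1), and in spindloid against other pathology 0 (0 to 1). In MetTrp53 against Trp53, 6 were above 0 (2 to 6). The members move together within sets, so these are not independent counts. Against normal the signs are not evidence, since the filter leans them upwards. Over all 287 miRNAs the median difference was 0.15 to 0.20 against normal and -0.02 to 0.02 in the other comparisons. Without Met tumour 7, the difference for Met against Trp53 went from 0.63 to 0.02 for miR-467b-5p and stayed at 0.13 for miR-466q.

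Other lists fixed for comparison gave no calls. The 5 other miRNAs that hold UGUGUGUG or ACACACAC were all detected on at least 1 array, 2 of them on all arrays, and 0 of the 3 tested was called by limma in any comparison. At an unadjusted p under 0.05, 1 of them passed, miR-574-5p against normal. The pluripotency miRNAs (the miR-290 and miR-302 clusters, known from embryonic stem cells) numbered 22, of which 3 were detected on at least 1 array and 0 on all, and 0 of the 2 tested was called or passed unadjusted.

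Array brightness was set against miR-466i-5p, the only member detected on all arrays. Its level correlated with the log2 scaling percentile at r = 0.03 (permutation p = 0.869) and rho = 0.10 (p = 0.644) over 25 arrays. Without Trp53 tumour 1 and Met tumour 1, r was 0.09, with slide means removed -0.12, and within tumours 0.14. Over the 12 tested members r ran from -0.27 (miR-466q) to 0.27 (miR-669n), with a smallest permutation adjusted p of 0.521.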

How the data were processed

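MicroRNAs were measured on 25 one-colour arrays of 5 slides, grouped by the genotype label, with replicate numbers in accession order that only name a sample. Scanner files deposited for each array give spot intensity, a processed signal that Feature Extraction (10.7.3.1 in the file headers) background-subtracted and did not normalise between arrays. A second table by the authors holds log2 values, which followed log2 intensity at r of at least 0.995 on each array, with column medians from 1.72 to 1.91. How it was centred is not known, the submitters' processing notes name RMA with no version, and it served as an alternative.

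Spots of a probe were averaged without outlier spots. Signals were divided by the array's 75th percentile over 221 probes detected on all arrays, floored at 0.0212 of it and put on log2, and the probes of a miRNA were averaged, also where they differed in signal. A miRNA was tested if detected on at least 7 tumour arrays or both pools. Differences came from lmFit and eBayes of limma 3.58.1 (R 4.3.3) with 4 groups in 1 model and Benjamini-Hochberg adjustment over 287 miRNAs, a method also run on simulated data. Permutation tests used numpy 2.4.6. The number of arrays limits the precision.

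The alternatives were normexp (offset 50, on the median spot signal), other percentiles, quantile normalisation, the authors' table, the brightest probe, other floors and filters, slide or scan date as a block, trend and robust eBayes, each array left out, and tumours of 1 title number averaged. Differences are given for the 2 tested members with the largest one in each direction and for members detected on all arrays. Other names were chosen after their values were seen. Members and lists were chosen with earlier results of these data known.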

Additional observations from a re-analysis of the deposited data

Results flagged for a closer look

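Within groups of 7 or 8 tumours, 36 combinations of a tested member and a group, and the number of members detected in 3 groups, were looked at for a single array whose gap to the nearest other was above Dixon's 95% critical value, and 12 had one, all of them member levels. Chance gives about 1 in 20 such groups where values are measured on every array. That rate does not hold where arrays are tied at the floor, as 2 or more were in 24 of the 36 combinations and in 10 of the 12 found. Members of a set move together, so these are not independent.

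In Met tumour 7, 4 members stood apart as the highest of the 7 Met tumours: miR-669f-3p with a level of 9.12 (others up to 5.87), miR-467b-5p with 8.12 (others up to 4.93), miR-467e-5p with 7.95 (others up to 4.93) and miR-669n with 7.55 (others up to 4.96). Levels are log2 scaled signal.

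In MetTrp53 tumour 8, 4 Sfmbt2 members stood apart as the highest of the 8 MetTrp53 tumours. MiR-467a-3p had 5.11 (others up to 3.91) and miR-669f-3p 4.51 (others up to 3.89). MiR-467b-5p had 3.77 and miR-467e-5p 3.66, both just above the floor at which all others lay.

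In MetTrp53 tumour 3, 3 members of the set around miR-467f stood apart: miR-467f with 5.12 (others 4.02 to 4.35), miR-466i-3p with 4.16 (others up to 3.86) and miR-466f-3p with 4.07 (others up to 3.81). In Trp53 tumour 2, miR-466i-3p had 3.70 (others up to 3.64), again just above the floor.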

How the results depend on the processing

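No tested member passed the limma threshold in any of the 9 comparisons under any alternative run, arrays left out in turn included, so the count of members called ranged from 0 to 0. The smallest limma adjusted p of a member over the settings with a detection filter was 0.066 (Met against normal) and 0.0722 (MetTrp53 against Met). With no detection filter 421 miRNAs and 37 members were tested, and miRNAs at the floor on every array gave no value. The correlation of miR-466i-5p with array brightness, 0.03, turned to -0.0558 with normexp and to -0.11 with the percentile over all mouse probes, far from the threshold in each case; the cause was not tested. The median number of members detected per array was 8, and 5, 12 and 12 when all spots, any spot or the software's own call (added after seeing the data, as were the lower floor in the correlations and the brightness relations of single members) decided. Without Met tumour 7 the differences of miR-467a-3p and miR-669f-3p for Met against Trp53 and for MetTrp53 against Met moved by over 1.5 times, as given above. No paired analysis was possible because replicate numbers were given in accession order and the labels tie no sample of one group to a sample of another. Signal over background limits the members: 25 were detected on no array and 10 on 2 to 6, and differences of members with arrays at the floor moved with its height, as given above.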

Other observations

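The non-members nearest to miR-467a-3p over 25 arrays, of 270 compared, were miR-20b-5p (r = 0.71, rho 0.48), miR-17-5p (r = 0.67, rho 0.45) and miR-20a-5p (r = 0.65, rho 0.40), which belong to the proliferation-associated miR-17 family clusters. Without Met tumours 4 and 7, r was 0.44, 0.34 and 0.37, so these relations rested largely on those 2 tumours. The non-members nearest to miR-467f were miR-5107 (r = 0.81, rho 0.76), miR-706 (r = 0.74, rho 0.62) and miR-709 (r = 0.73, rho 0.75), and without Trp53 tumour 7 and Met tumour 5 r was 0.69, 0.61 and 0.61. These are the highest of many correlations and are given as a description, with no p.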
